A study of Mus musculus with 6 samples.

Results

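Open chromatin at 8 Sox genes of mesenchyme and cartilage (*Sox4*, *Sox5*, *Sox6*, *Sox8*, *Sox9*, *Sox11*, *Sox12* and *Sox13*) was described in the posterior second heart field (pSHF) and in the atria (HT) of mouse embryos. A peak was taken for a gene when its summit lay nearest that gene's body among 21631 protein-coding genes of mm10, at 100 kb or less, and for *Sox9* and *Sox4* also out to 500 kb. This gave 64 of the 44018 pSHF peaks and 53 of the 49267 HT peaks, with a further 16 pSHF and 12 HT peaks between 100 and 500 kb of *Sox9* or *Sox4*. The pSHF holds progenitors behind the heart tube that join its venous pole. Both tissues came from wild-type CD1 embryos, an outbred strain, at embryonic day 10, and the pieces were pooled and dissociated before transposition. The assay was ATAC-seq, in which the Tn5 transposase cuts accessible DNA and adds sequencing adapters. Each tissue had 3 samples but 1 deposited peak list, so every value below belongs to a list. No spread between samples and no test between tissues can be given, and each comparison is a description of these lists. A dissected piece holds several cell types, and fewer open cells cannot be told apart from less opening per cell.

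SOX proteins bind DNA through an HMG box and bend it, and they are grouped by sequence. The SoxC genes *Sox4*, *Sox11* and *Sox12* encode activators that are widely expressed in embryonic progenitors and mesenchyme, and *Sox4* and *Sox11* are needed for the outflow tract of the mouse heart. The SoxD genes *Sox5*, *Sox6* and *Sox13* encode proteins with a coiled coil and no known activation domain of their own. SOX5 and SOX6 work beside SOX9 on cartilage matrix genes. The SoxE genes *Sox8* and *Sox9* encode activators, and SOX9 is the factor without which cartilage does not form. *Sox9* lies in a gene desert known in mouse and human for enhancers far from the gene.

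A peak with 1 bp or more in common with the other tissue's list is called shared, and any other peak restricted. A restricted peak is one that the other list lacks at the threshold used, which does not show that the chromatin there was closed. Fold enrichment is the ratio of the signal at the summit to the local background, as given by the authors' peak caller, and −log10 q is its significance value. The number of reads at each summit was worked out from the deposited peak values, and it carries an exact Poisson 95% interval for counting error only. The lowest local background was 0.857 reads in pSHF and 0.824 in HT. The median over all peaks was 11 reads at the summit in pSHF and 12 in HT. The labelled tissues had peaks of their own markers. The 6 pSHF markers carried 25 pSHF-restricted and 4 HT-restricted peaks, and the 8 cardiomyocyte markers carried 1 and 25. More pSHF-restricted peaks were found at 5 of the 6 pSHF markers, where 19.9% of all genes with a peak had such an excess. *Gas1* with 11 and 0 and *Foxf1* with 7 and 1 held most of them, and *Isl1* had 2 and 2. An HT excess was found at 7 of the 8 cardiomyocyte markers, against 39.0% of genes, and *Tnnt2* had 1 and 0.

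The start regions of *Sox4*, *Sox11*, *Sox12*, *Sox8* and *Sox13* were covered by peaks in both lists, and their sequences are shown because these are the sites that the tissues had in common. Each line gives the 250 bases before the start site on the minus strand, 5′ to 3′, from RefSeq on GRCm38.p6, which has mm10 chromosome coordinates. The *Sox13* start site listed there lies inside the gene body used below, which ends at chr1:133424459. Nearly all of that window thus lies inside the body, and *Sox13* distances below run from the end of the body. Capitals mark matches on either strand to the motifs searched. The sixth line is an inner start of *Sox6* that a pSHF-restricted peak reached.
Sox4, chr13:28953700-28953949: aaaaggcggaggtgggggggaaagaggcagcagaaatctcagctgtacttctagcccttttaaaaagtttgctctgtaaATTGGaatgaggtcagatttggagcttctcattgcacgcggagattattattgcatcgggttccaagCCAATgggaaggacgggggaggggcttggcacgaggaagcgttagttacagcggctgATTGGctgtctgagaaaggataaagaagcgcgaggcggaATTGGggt
Sox11, chr12:27342719-27342968: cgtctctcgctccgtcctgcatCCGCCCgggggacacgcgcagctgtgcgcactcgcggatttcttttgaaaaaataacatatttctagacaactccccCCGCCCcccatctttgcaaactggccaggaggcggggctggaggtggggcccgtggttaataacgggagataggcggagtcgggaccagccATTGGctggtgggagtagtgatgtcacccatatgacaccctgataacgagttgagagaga
Sox12, chr2:152398047-152398296: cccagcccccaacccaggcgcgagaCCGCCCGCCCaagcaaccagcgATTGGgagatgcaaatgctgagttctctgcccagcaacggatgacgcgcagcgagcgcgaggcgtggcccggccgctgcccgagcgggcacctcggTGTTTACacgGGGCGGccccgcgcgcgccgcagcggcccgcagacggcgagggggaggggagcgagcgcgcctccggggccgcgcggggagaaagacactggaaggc
Sox8, chr17:25570687-25570936: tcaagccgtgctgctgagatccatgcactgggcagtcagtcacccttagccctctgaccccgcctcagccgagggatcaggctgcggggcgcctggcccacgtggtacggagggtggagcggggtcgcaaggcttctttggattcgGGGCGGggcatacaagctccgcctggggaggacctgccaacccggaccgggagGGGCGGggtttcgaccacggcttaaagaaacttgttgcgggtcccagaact
Sox13, chr1:133424213-133424462: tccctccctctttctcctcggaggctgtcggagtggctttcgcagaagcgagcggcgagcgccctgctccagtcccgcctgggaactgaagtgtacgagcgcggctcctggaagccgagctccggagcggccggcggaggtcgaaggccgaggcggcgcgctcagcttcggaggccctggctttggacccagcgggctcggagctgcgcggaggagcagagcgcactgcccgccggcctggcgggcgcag
Sox6, chr7:115824711-115824960: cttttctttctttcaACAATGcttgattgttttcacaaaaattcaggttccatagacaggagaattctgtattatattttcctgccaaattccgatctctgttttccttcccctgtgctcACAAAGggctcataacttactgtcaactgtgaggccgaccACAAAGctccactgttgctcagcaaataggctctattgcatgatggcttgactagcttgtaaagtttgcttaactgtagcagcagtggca

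All 250 bases lay inside pSHF peaks at *Sox4*, *Sox11*, *Sox12* and *Sox8*, and 109 did at *Sox13*. HT peaks covered all 250 bases at *Sox11*, *Sox12*, *Sox8* and *Sox13*, and 209 at *Sox4*. At the inner *Sox6* start the pSHF peak covered 36 bases and no HT peak reached the window. The search took the GLI letters TGGGTGGTC, the CCAAT box, the GC box GGGCGG, the TATA box TATAAA, and for SOX factors the letters ACAAAG as well as ACAATG. It also took the GATA letters AGATAA, the T-box letters AGGTGTGA, the forkhead letters TGTTTAC, the HOX/PBX letters TGATTGAT and a MEF2 consensus, each with its reverse complement. *Sox4* held 4 CCAAT boxes, and *Sox11* and *Sox12* held 1 each. A CCAAT box stood in 35.6% of the 21045 promoter windows of protein-coding genes. GC boxes numbered 2 at *Sox11*, 3 at *Sox12* and 2 at *Sox8*, and 43.1% of all windows held at least 1. A pair of the *Sox12* boxes overlap each other. *Sox12* also held the forkhead letters, found in 2.64% of windows. The inner *Sox6* window held ACAATG once, which 8.84% of windows held, and had 2 matches to the other SOX letters, which 15.0% held. Other *Sox6* windows, reached by no peak of either list, also held SOX letters, except the window at chr7:115801610-115801859. The window at chr7:115995087-115995336 had 2 matches to each of the SOX letters. The *Sox13* window held none of these letters. The GLI letters stood in none of the 12 windows listed for 7 of the genes and in 0.162% of all windows. A match is a run of letters and not a bound site, and a window without one says nothing about the factor. The share of G and C was 50.8% at *Sox4*, 58.0% at *Sox11*, 65.6% at *Sox8*, 72.4% at *Sox13* and 74.4% at *Sox12*, beside a median of 55.6%.

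Every one of the 8 genes had a peak within 1 kb of its start in both lists, and the strongest such peak overlapped the other list at all 8. The share of all genes with such peaks is not given here. Near gene ends 88.7% of all pSHF peaks and 86.2% of all HT peaks were shared, so this overlap is not particular to the 8 genes. For *Sox9*, whose strand was not in the table used, the low-coordinate end stands for the start. At *Sox11* the summit had 32 reads in pSHF (95% interval 21.9 to 45.2) and 32 in HT (21.9 to 45.2), with fold enrichments of 7.73 and 8.01. At *Sox4* it had 30 reads in pSHF (20.2 to 42.8) and 29 in HT (19.4 to 41.6), with fold enrichments of 6.13 and 6.04. These SoxC starts had nearly the same signal in the pSHF and HT lists. *Sox12* had the most reads, with 45 in pSHF (32.8 to 60.2) and 62 in HT (47.5 to 79.5), but its local background was also high, at 7.32 and 8.52 reads. Its fold enrichment was 5.53 in pSHF and 6.62 in HT. *Sox5* had 18 reads in pSHF and 17 in HT, and *Sox6* had 16 in each. At *Sox13* the strongest peaks, with 15 reads in pSHF and 12 in HT, did not overlap each other. Each overlapped a weaker peak of the other list there, and these weaker peaks, with 11 reads each, overlapped one another. *Sox9* had 20 reads in pSHF (12.2 to 30.9) and 13 in HT (6.92 to 22.2), with fold enrichments of 4.69 and 4.56. The widest gap as a ratio was at *Sox8*, with 20 reads in pSHF (12.2 to 30.9) and 36 in HT (25.2 to 49.8), and fold enrichments of 4.97 and 9.81. The ratio of *Sox8* reads, pSHF over HT, was 0.556 (95% interval 0.305 to 0.986, exact binomial, counting error only).

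**Figure D1:**
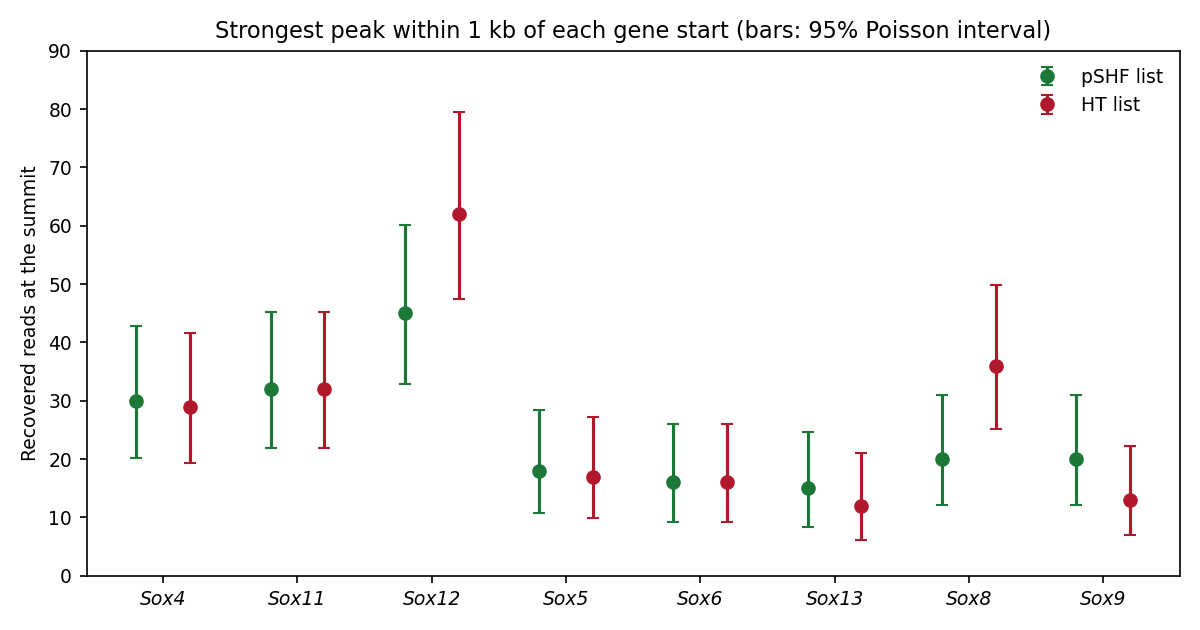
Reads at the summit of the strongest peak within 1 kb of each gene start, as a point per list with its 95% Poisson interval, pSHF left of HT. The intervals of the lists overlap at all 8 genes, *Sox8* included (20 reads in pSHF, 36 in HT). At *Sox13* the points belong to peaks that do not overlap each other, though each overlaps a weaker peak of the other list.

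Away from the starts the genes differed, and the SoxD genes carried most of the restricted peaks. Of the 64 pSHF peaks, 35 were restricted (54.7%) and 29 shared (45.3%, exact Clopper-Pearson 95% interval 32.8 to 58.3, over peaks only). Of all pSHF peaks within 100 kb of a protein-coding gene, 31.8% were restricted. Of the 53 HT peaks, 21 were restricted (39.6%) and 32 shared (60.4%, 46.0 to 73.5), beside 43.7% restricted among all such HT peaks. The larger number in pSHF was lost with a cutoff on −log10 q but not with a cut at each list's own median fold enrichment. When only peaks with −log10 q of 5 or more were kept, 11 pSHF and 13 HT peaks were restricted. These numbers were 5 and 9 when sharing was first decided on the full lists. With each list cut instead at its own median fold enrichment, 16 pSHF and 8 HT peaks were restricted. Deciding sharing first gave 8 and 5 there. The medians were 4.85 in pSHF and 5.49 in HT, so HT peaks met a higher bar. A common cutoff on fold enrichment was not among the settings, so whether the larger pSHF number would remain under it was not tested. The SoxD genes held 28 of the 35 pSHF-restricted and 12 of the 21 HT-restricted peaks, the SoxC genes 3 and 5, and the SoxE genes 4 of each. The SoxD genes also held most peaks of any kind in pSHF, with 41 of the 64, and 26 of the 53 in HT. Of these 68.3% in pSHF and 46.2% in HT were restricted, the latter near the 43.7% of all such HT peaks. Without *Sox5* and *Sox6*, 11 of 30 pSHF peaks (36.7%) and 9 of 30 HT peaks (30.0%) were restricted. More pSHF-restricted than HT-restricted peaks were found at 3 of the 8 genes, where 19.9% of 16400 genes with a peak had such an excess. More HT-restricted peaks were found at 2, against 39.0%, and 3 genes were equal. An excess of at least 3 pSHF-restricted peaks was found at the same 3 SoxD genes, where 2.46% of genes reached it, and none of the 8 had an HT excess of that size (8.55% of genes). The median difference was 0 over the 8 genes and 0 over all genes with a peak. The genes were chosen with earlier results of these lists known, so these counts describe them and support nothing further.

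**Figure D2:**
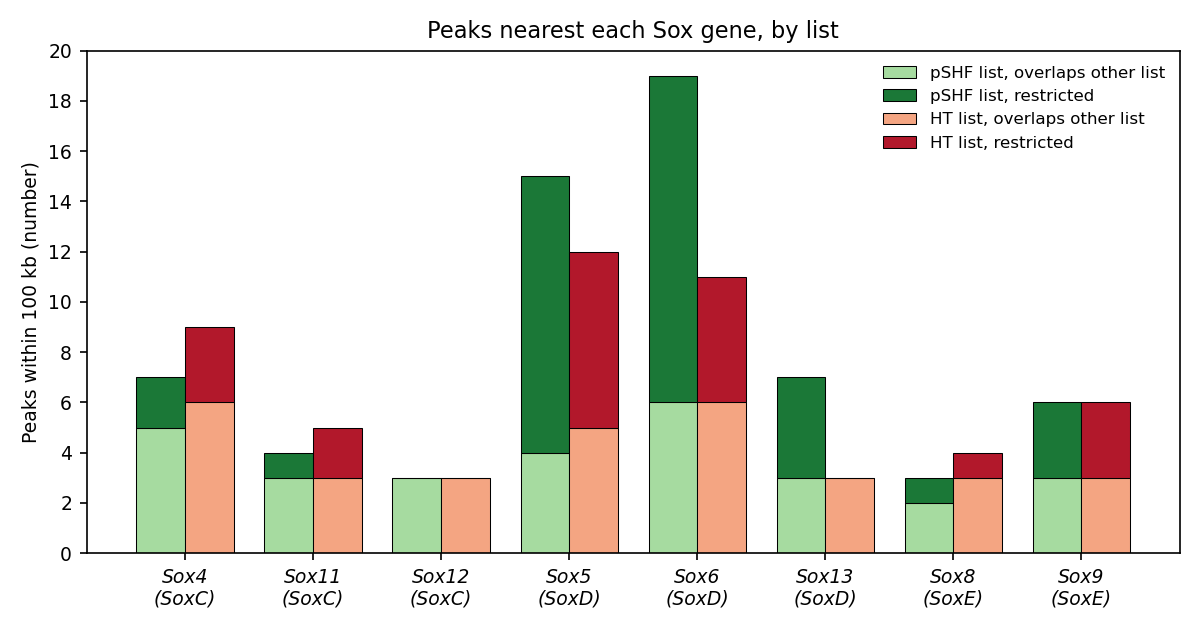
Number of peaks within 100 kb nearest each gene, pSHF bar left of HT bar, with shared peaks in the pale lower part and restricted peaks in the dark upper part. *Sox6* has 19 pSHF and 11 HT peaks, *Sox13* has 7 and 3, and *Sox12* has 3 shared peaks in each list and no restricted one.

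Restricted peaks had fewer reads than shared ones in both tissues. The median fold enrichment of the restricted member peaks was 4.27 in pSHF (range 3.5 to 6.27) and 4.39 in HT (3.34 to 9.39), with a median of 8 reads in pSHF and 9 in HT. Shared member peaks had medians of 4.95 in pSHF (2.82 to 9.43) and 4.65 in HT (2.7 to 13.0), with 15 and 13 reads. Over all peaks of the series the restricted medians were 4.31 in pSHF and 4.84 in HT, and the shared medians 5.54 and 7.0. Of the restricted member peaks, 5 in pSHF and 9 in HT reached a −log10 q of 5. Only 1 member peak of each list stood in the top 10% of its list by fold enrichment, inside *Sox5* in pSHF and inside *Sox6* in HT. Near gene ends 12 of 14 pSHF peaks (85.7%) and 13 of 14 HT peaks (92.9%) were shared, beside 88.7% and 86.2% of all peaks in that place. Between genes 10 of 20 pSHF peaks and 12 of 24 HT peaks were shared, beside 55.6% and 44.5% of all peaks between genes. Inside genes, more than 1 kb from an end, 7 of 30 pSHF peaks (23.3%) were shared, beside 56.4% of all such pSHF peaks. There 7 of 15 HT peaks (46.7%) were shared, beside 42.2%. The member shares were thus near those of the series except inside genes in pSHF, where 23 of the 30 peaks were restricted. All 23 were at SoxD genes, but these genes held 29 of the 30 peaks, so that placement was nearly fixed. Among the restricted peaks, 5 of 35 in pSHF (14.3%) and 5 of 21 in HT (23.8%) lay within 500 bp of a peak of the other list without touching it, beside 16.2% and 9.86% of all restricted peaks.

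*Sox6* had the largest excess, with 13 pSHF-restricted and 5 HT-restricted peaks beside 6 shared peaks in each list. The gene spans 570 kb (chr7:115470872-116040776), and 12 of the 13 pSHF-restricted peaks lay inside it. These ran from 0.882 kb to 564 kb from the start, with fold enrichments of 3.5 to 5.02 and 6 to 10 reads. None reached a −log10 q of 5, the highest being 4.35. The HT-restricted peaks had fold enrichments of 3.34 to 6.51 and 9 to 17 reads, and 3 of the 5 reached 5. The longer run of pSHF-restricted peaks was thus made of weak peaks. When only peaks with −log10 q of 5 or more were kept, *Sox6* had 4 more restricted peaks in HT, and 3 more when sharing was first decided on the full lists. By the nearest gene end instead of the gene body the difference was 1. The highest restricted *Sox6* peak, at chr7:115374175-115374439 in HT, lay 96.6 kb past the 3′ end of the gene with 13 reads (6.92 to 22.2).

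The strongest peak of the set in either list lay in *Sox6* and was much higher in the atria. At chr7:115941792-115942148 in HT, 98.8 kb into the gene, the fold enrichment was 13.0 and −log10 q was 25.4. Its pSHF partner at chr7:115941843-115941960 reached a fold enrichment of 4.31, with 2.98 for −log10 q. The summits had 7 reads in pSHF (2.81 to 14.4) and 28 in HT (18.6 to 40.5), a ratio of 0.25 (0.0922 to 0.586). The site counts as shared, so it adds nothing to the difference in restricted peaks. Past the 3′ end, at 55.4 and 17.4 kb from the gene, shared peaks leaned slightly the other way. The farther had 20 reads in pSHF and 11 in HT (ratio 1.82, 0.83 to 4.2), and the nearer had 14 in pSHF and 9 in HT (1.56, 0.627 to 4.07), intervals that include 1.

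*Sox5* had 11 pSHF-restricted and 7 HT-restricted peaks, beside 4 shared peaks in pSHF and 5 in HT. The gene spans 954 kb (chr6:143828425-144782287), with 1.3 pSHF and 1.04 HT peaks per 100 kb of its surroundings. Within 100 kb of all protein-coding genes the densities were 2.16 and 2.43. The pSHF-restricted peaks had 6 to 12 reads, with fold enrichments of 3.74 to 6.27. The strongest, at chr6:144264260-144264707, lay 518 kb from the start with 12 reads (6.2 to 21.0). The strongest HT-restricted peak, at chr6:144250857-144251019, lay 13240 bp from it with a fold enrichment of 6.58 and 11 reads. Restricted peaks of both lists thus stood in the same part of the gene. A −log10 q of 5 was reached by 2 restricted peaks of each list, and the difference of 4 was 0 at that cutoff and by the nearest gene end.

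The strongest pSHF peak of the set was a shared site inside *Sox5*. At chr6:144209498-144209784, 573 kb from the start, its fold enrichment was 9.43 and its −log10 q 19.5. Its HT partner reached a fold enrichment of 6.2, with 7.34 for −log10 q. The summits had 29 reads in pSHF (19.4 to 41.6) and 13 in HT (6.92 to 22.2), a ratio of 2.23 (1.12 to 4.67). The long SoxD genes therefore each held a site of unequal height, higher in pSHF at *Sox5* and higher in HT at *Sox6*. Both sites were picked as the strongest of a list. That choice itself favours an unequal ratio, and the intervals do not allow for it. No *Sox5* peak overlapped the start window listed for this gene, which lies inside the gene body.

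*Sox13*, a SoxD gene of 42.2 kb (chr1:133382300-133424459), had 4 pSHF-restricted peaks and no HT-restricted peak, beside 3 shared peaks in each list. A pair lay inside the gene. The one at chr1:133409056-133409322, 15.3 kb from the gene end that holds the start, had a fold enrichment of 5.85 and 15 reads (8.4 to 24.7). The other, at chr1:133418394-133418513, had 4.84 and 14 reads. Upstream, the peak at chr1:133492678-133493192 had the highest fold enrichment, 5.87, with 17 reads (9.9 to 27.2), and it lay 232 bp from an HT peak it did not touch. The last one, at chr1:133486437-133486641, had 8 reads. A −log10 q of 5 was reached by 3 of the 4. *Sox13* was the member whose excess kept its sign under all 12 alternative settings, with differences of 2 to 5. With a gap of up to 500 bp counted as shared, the difference was 3.

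**Figure D3:**
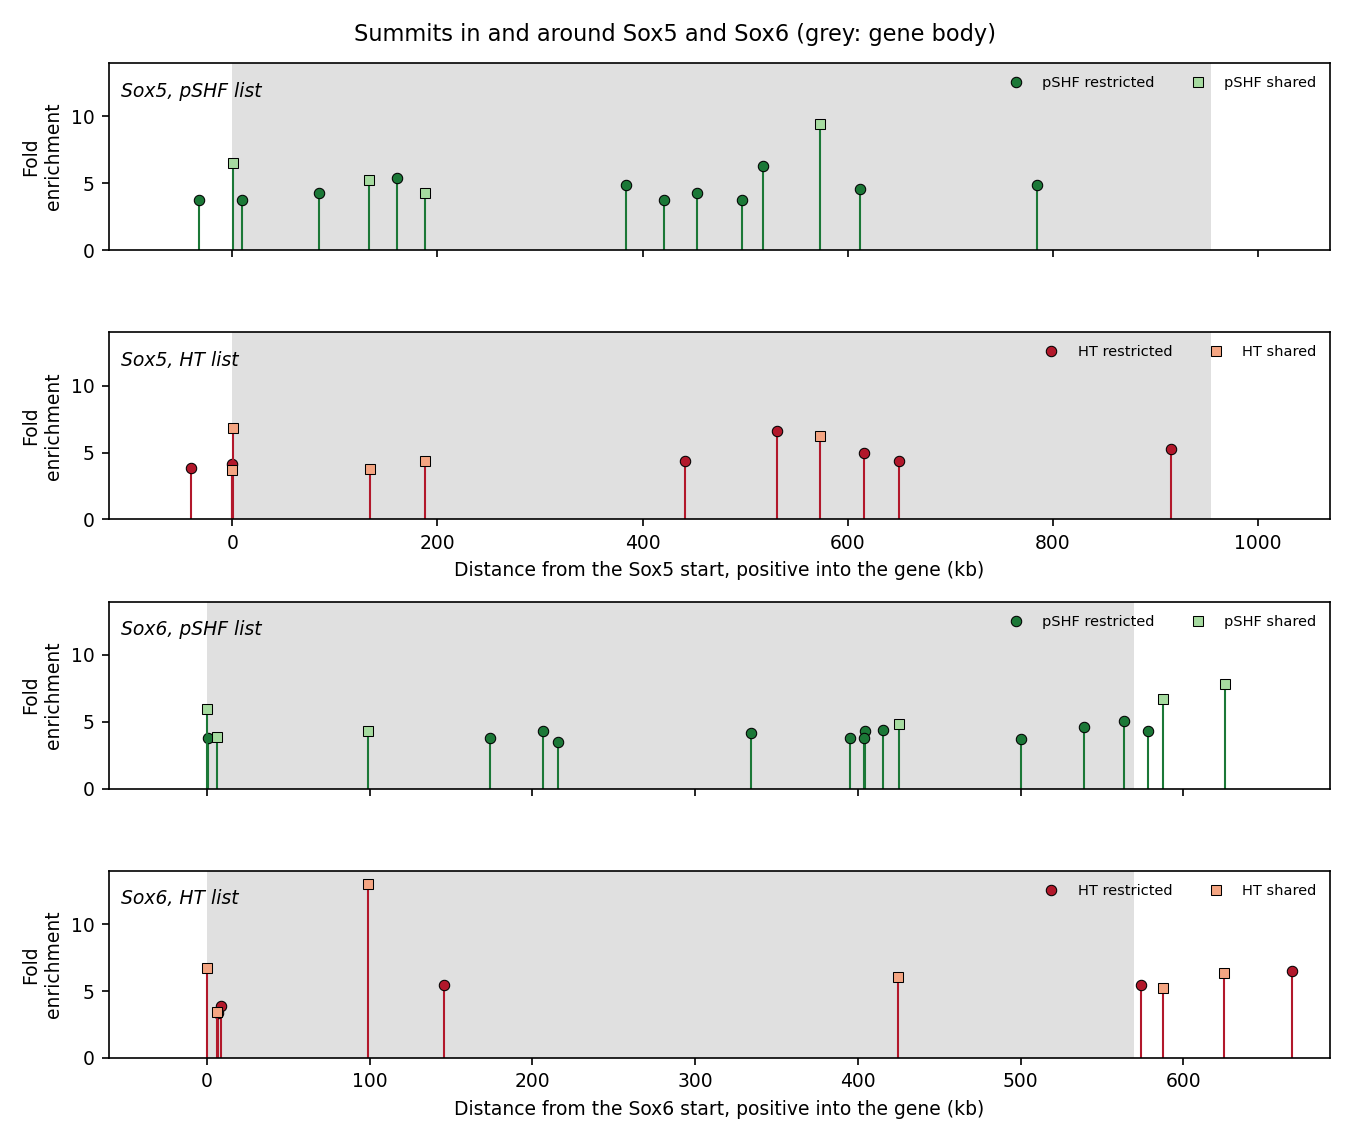
Fold enrichment at each summit of *Sox5* and *Sox6* by distance from the gene start in kb, pSHF list above HT list, with shared peaks as squares, restricted peaks as circles and the gene body in grey. The tallest marks are shared sites, 9.43 in pSHF inside *Sox5* and 13.0 in HT inside *Sox6*, over a low row of restricted peaks.

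The SoxC genes shared most of their peaks. *Sox12* (chr2:152393611-152398046) has close neighbours, with only 19.9 kb nearest to it, and held 3 shared peaks in each list and none restricted. Its peak inside the gene, at chr2:152396245-152396580 in pSHF, had 42 reads in pSHF (30.3 to 56.8) and 62 in HT (47.5 to 79.5). The ratio was 0.677 with an interval of 0.447 to 1.02. All 3 *Sox12* pairs were higher in HT, with fold enrichment ratios, pSHF over HT, of 0.761 to 0.868. Over all pairs of the series 76.1% were higher in HT, with a median ratio of 0.819. *Sox11* (chr12:27334268-27342718) lies in a gene desert of 854 and 1100 kb on its sides, yet within 100 kb it had 4 pSHF and 5 HT peaks. Beside the start, 1 pSHF-restricted and 2 HT-restricted peaks stood downstream, with 6 reads in pSHF and 7 each in HT. These are among the lowest peaks that the caller reported, the smallest in either list having 5 reads.

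*Sox4* (chr13:28948919-28953699) had 7 pSHF and 9 HT peaks within 100 kb, of which 2 and 3 were restricted. Upstream of the start, at 4.33 to 6.16 kb, lay a group of peaks in both lists. There the pSHF peak at chr13:28958357-28958538 had a fold enrichment of 4.93 and 23 reads, and its HT partner 3.52 and 17 reads. The next one, at chr13:28958648-28959005, had 3.13 and 13 reads in pSHF and 6.08 and 24 reads in HT. Neighbouring summits of the same group were thus higher in different tissues, with ratios of 1.35 (0.692 to 2.7) and 0.542 (0.253 to 1.11) that both include 1. Of the restricted peaks, the pSHF peak at chr13:28953303-28953433 lay 12 bp from an HT peak, and a pSHF and an HT peak 63.5 kb and 63.6 kb from the gene were 28 bp apart. The strongest restricted peak, at chr13:29049791-29049933 in HT, lay 96.2 kb upstream with a fold enrichment of 6.03 and 10 reads (4.8 to 18.4).

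Out to 500 kb *Sox4* had 16 pSHF and 18 HT peaks, with 6 and 7 restricted. Beyond 100 kb all 9 pSHF peaks and 8 of 9 HT peaks lay on the downstream side, where the next protein-coding gene is 797 kb away. On the upstream side the reach was 119 kb, because *Cdkal1* is nearer beyond that. On the downstream side 5 peaks of each list were shared. The strongest in pSHF, at chr13:28757896-28758117, 191 kb from the gene, had a fold enrichment of 7.16 and 18 reads in pSHF (10.7 to 28.4) and 5.37 and 11 reads in HT (5.49 to 19.7). The strongest in HT, at chr13:28718404-28718683, 230 kb away, had 6.34 and 15 reads in pSHF and 6.86 and 13 reads in HT. The farthest HT peak was restricted and lay 392 kb from the gene with 6 reads. At the limit of 100 kb itself, the nearest *Sox4* peaks outside were at 104 kb in pSHF and 105 kb in HT, and the farthest inside at 74.8 and 96.2 kb.

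*Sox9* (chr11:112782210-112787757) had 6 peaks in each list within 100 kb, with 3 restricted and 3 shared in both. The restricted sites were not the same ones. The strongest restricted member peak of either list was at chr11:112850562-112850932 in HT, 62.9 kb past the high-coordinate end of the gene. Its fold enrichment was 9.39, its −log10 q 15.7 and its summit 21 reads (13.0 to 32.1), and the nearest pSHF peak was 19028 bp away. Toward the gene the pSHF list had a restricted peak at chr11:112827124-112827369, with a fold enrichment of 4.74 and 8 reads (3.45 to 15.8). On the other side, pSHF peaks 53.9 and 53.6 kb from the gene, with 8 and 7 reads, and an HT peak at 53.2 kb with 7 reads stood next to each other without overlap, the nearest gap being 317 bp. An HT peak at chr11:112690142-112690296, 92.0 kb from the gene, had a fold enrichment of 6.03 and 10 reads. The shared site at chr11:112869961-112870411, 82.3 kb from the gene, had 10 reads in pSHF and 5 in HT (ratio 2, 0.623 to 7.46).

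Farther out *Sox9* had more restricted peaks in pSHF. Between 100 and 500 kb there were 7 pSHF peaks, 6 of them restricted, and 3 HT peaks, 2 of them restricted. This made 9 pSHF-restricted and 5 HT-restricted peaks out to 500 kb, so pSHF had 4 more. That excess was 0 once only peaks with −log10 q of 5 or more were kept, and 0 when non-coding genes could also take a peak. On the low-coordinate side, where the next protein-coding gene is 1060 kb away, only pSHF peaks were found beyond 100 kb. The one at chr11:112450292-112450639, 332 kb from the gene, reached a fold enrichment of 6.98 with 12 reads (6.2 to 21.0). Its neighbour at chr11:112442009-112442178, 340 kb away, had 5.92 and 10 reads (4.8 to 18.4). No HT peak lay within 239502 bp of the first. On the high-coordinate side, where *Slc39a11* is nearer beyond 229 kb, both lists had peaks. An HT-restricted peak at chr11:112930330-112930704, 143 kb away, reached 7.39 with 13 reads (6.92 to 22.2), and a pSHF-restricted peak at chr11:112926317-112926582, 3747 bp from it, reached 5.19 with 10 reads. At 195 to 203 kb pSHF had a run of restricted peaks with 11, 11 and 14 reads.

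*Sox8* (chr17:25565893-25570686), the other SoxE gene, sits between close neighbours, with 43.3 kb nearest to it, and had 3 pSHF and 4 HT peaks. The start peak described above was the main site, and in pSHF it was 950 bp wide with 3 summits. Downstream, a shared site 26.1 kb from the gene had 8 reads in pSHF and 13 in HT (ratio 0.615, 0.221 to 1.6). The restricted peaks were 1 in each list, with 8 reads in pSHF and 9 in HT. The HT one lay 158 bp from a pSHF peak. *Sox8* was thus higher in HT at both of its shared sites, as 76.1% of all shared pairs were, though only the start interval excluded 1.

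**Figure D4:**
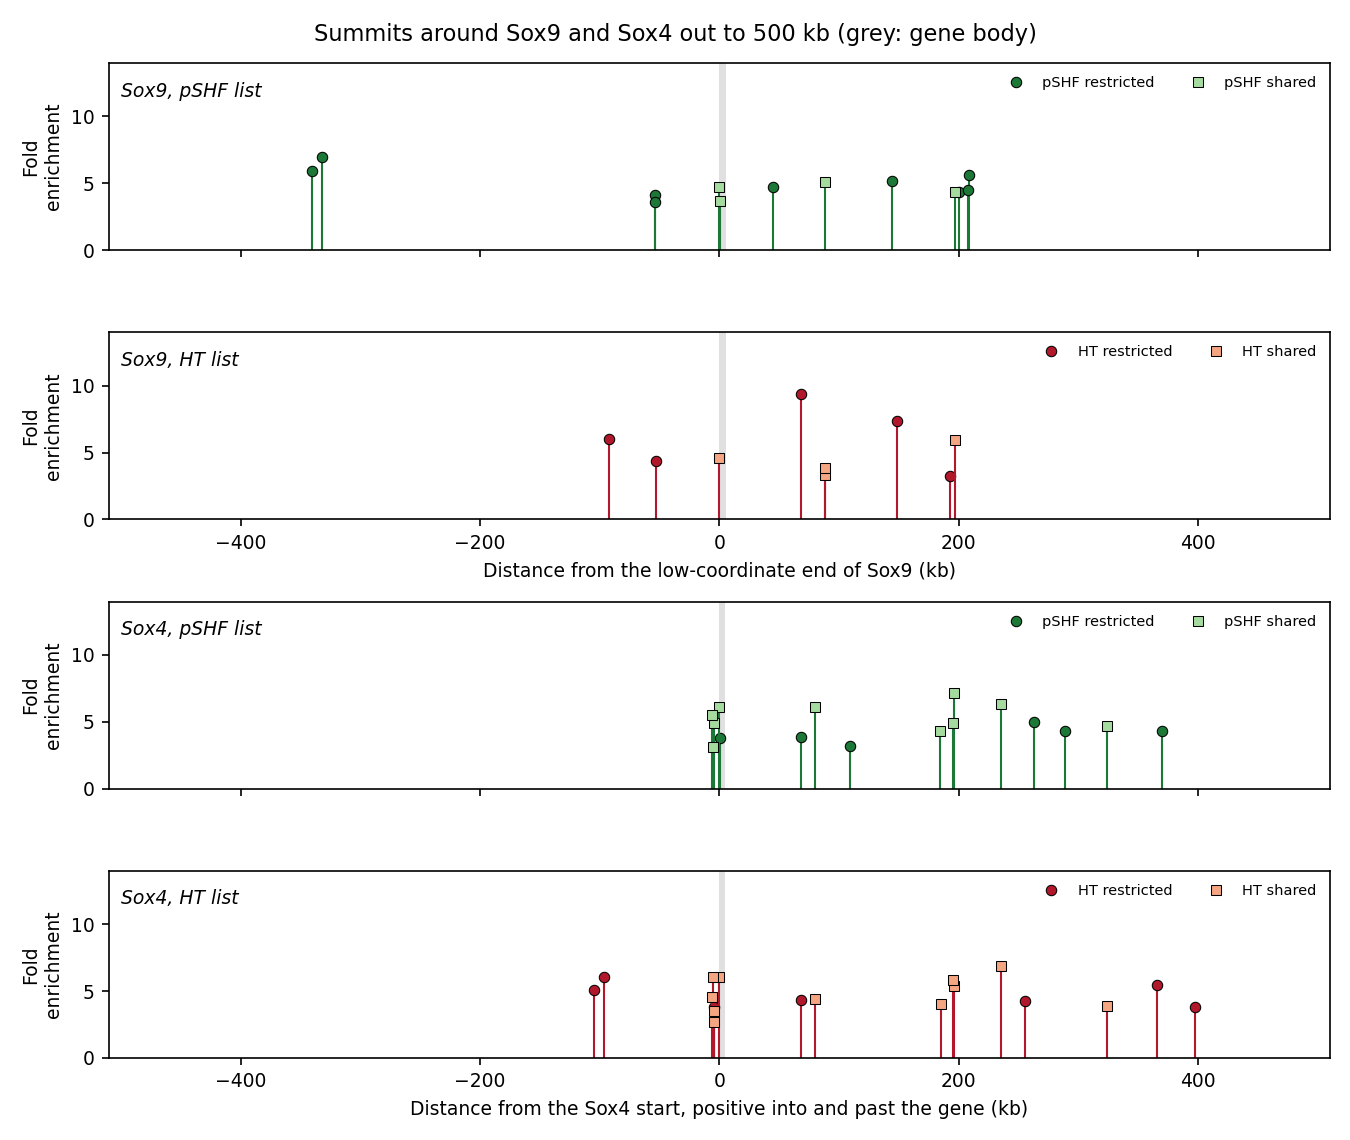
Fold enrichment at each summit out to 500 kb of *Sox9* and *Sox4*, by distance in kb from the low-coordinate end of *Sox9* or the start of *Sox4*, pSHF list above HT list, with shared peaks as squares, restricted peaks as circles and the gene body in grey. Around *Sox9* the pSHF marks at 332 and 340 kb on the low side have no HT counterpart, and the HT mark of 9.39 at 62.9 kb past the gene has no pSHF counterpart.

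Where a pSHF and an HT peak were each other's longest overlap, their heights could be set side by side. The 8 genes had 27 such pairs within 100 kb. The median log2 ratio of fold enrichment, pSHF over HT, was -0.04 (95% interval of the median -0.26 to 0.28, range -1.59 to 0.63). Over all 26119 pairs of the series it was -0.29, so shared peaks in general were higher in HT, and a ratio near 0 lies above that shift. More than 1.5-fold higher in pSHF were 2 of the 27 pairs, at *Sox5* and *Sox9*, where 2.35% of all pairs were. More than 1.5-fold higher in HT were 3, at *Sox6*, *Sox8* and *Sox4*, against 22.2%. The interval of the read ratio lay above 1 at 1 pair and below 1 at 2, and it included 1 at 24. The same count over all pairs is not given here, so these numbers cannot be read as particular to the 8 genes. These intervals are not adjusted for the number of pairs. Higher in HT were 15 of the 27 pairs (55.6%), beside 76.1% of all pairs. Among the 10 near gene ends, 8 were higher in HT, with a median of -0.19, beside 81.4% and a median of -0.32 over all pairs near gene ends. Summits of a pair lay a median of 59 bp apart, beside 63 bp for all pairs.

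**Figure D5:**
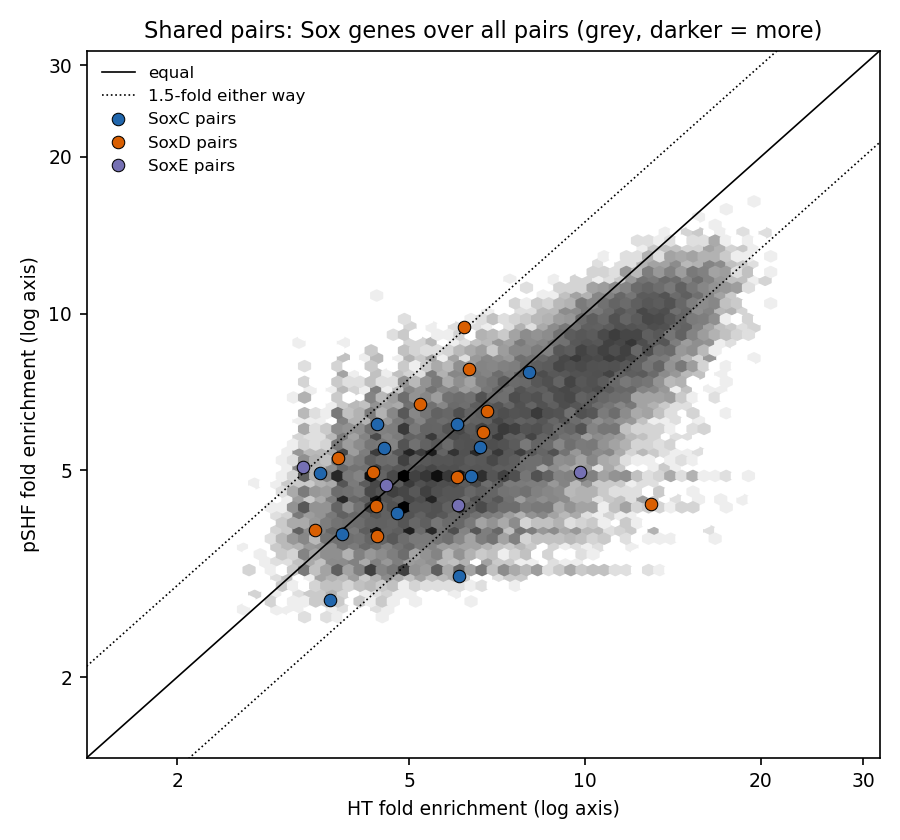
Fold enrichment in pSHF against fold enrichment in HT, both on log axes, for the 27 member pairs (coloured by subgroup) over all 26119 pairs in grey. The line marks equal values and the dotted lines 1.5-fold, with the *Sox6* pair of 4.31 in pSHF and 13.0 in HT far to the right.

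Other Sox genes did not share the SoxD pattern as a group. Of 12 genes 11 were on the chromosomes covered by the lists and 9 had a peak, with 10 pSHF-restricted and 10 HT-restricted peaks in all. The median difference over the 11 genes was 0, those without a peak included. An excess was found in pSHF at 2 and in HT at 2, where 19.9% and 39.0% of all genes with a peak had one. In pSHF it was at *Sox14*, with 3 pSHF-restricted and 1 HT-restricted peaks, and *Sox30*, with 1 and 0. In HT it was at *Sox2*, a neural and foregut progenitor gene, with 2 and 4, and *Sox7*, an endothelial gene, with 0 and 1. *Sox10*, the third SoxE gene and a neural crest marker, had no peak in either list.

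Genes of cartilage matrix and mesenchyme carried more restricted peaks in pSHF. Across 23 genes, 35 peaks were pSHF-restricted and 17 HT-restricted, and 20 of the genes had any peak. An excess was found in pSHF at 12 and in HT at 3, where 19.9% and 39.0% of all genes with a peak had one, and the median difference was 1. Largest were *Trps1*, a GATA-type repressor gene of cartilage, with 6 pSHF-restricted and 2 HT-restricted peaks, and *Snai1*, a repressor gene of epithelial to mesenchymal transition, with 4 and 0. *Msx1*, *Pax1*, *Col9a1* and *Col9a2* had a difference of 2. Among known SOX9 targets of cartilage, *Col2a1* had 1 and 0, *Acan* had 2 and 1, and *Col11a2* had no peak. On the HT side were *Prrx1* with 1 and 3, *Runx2*, the bone factor gene, with 2 and 3, and *Prrx2* with 1 and 2. The sclerotome markers, which share *Pax1*, *Pax9* and *Nkx3-2* with this list, had 13 and 5 restricted peaks, with an excess in pSHF at all 5 against that same 19.9%. The neural crest markers had 8 and 9, with an excess in pSHF at 1 gene and in HT at 2. The neural tube markers had 8 and 12, with an excess at 1 and 3 genes. Foregut endoderm markers had 17 and 9, with an excess in pSHF at 4 genes and in HT at none. Endothelial markers had 8 and 25, and erythroid markers 0 and 11. Both of these had an excess in HT at 4 genes, against 39.0% of all genes, and in pSHF at none. Each of these lists had 5 genes. The part of these cell types in the Sox peaks was not tested.

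*Sox6* and *Sox5* had more peaks than 99.5% and 99.2% of genes with a peak. The genes most like *Sox6* in their 4 counts (restricted and shared peaks of each list) were *Rbms3* and *Trabd2b*, whose counts differed from it by 3 in sum, and *Nav3* by 4. *Rbms3* had 12 pSHF-restricted and 7 HT-restricted peaks and *Trabd2b* 14 and 7. Nearest to *Sox5* were *Efna5*, *Hmga2* and *Zfp536*, each with a summed difference of 2. *Efna5* and *Hmga2* both had 11 pSHF-restricted and 6 HT-restricted peaks. This likeness rests on 2 lists and on gene lengths that vary from 115 kb at *Hmga2* to 1060 kb at *Rbms3*.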

How the data were processed

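ATAC-seq peak lists of pSHF and HT were used as deposited, 1 list per tissue for 3 samples each. MACS2 2.1.1, Bowtie2 2.3.2, SAMtools 1.5 and Picard are named, per the submitters' processing notes, with build mm10. Whether samples were pooled first, and what each tool did, was not given there. The authors' columns hold a score, the fold enrichment as a ratio, the −log10 p, the −log10 q and the summit position. The smallest −log10 q, as deposited, was 1.3013 for pSHF and 1.30685 for HT peaks.

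The 58887 pSHF and 60223 HT lines were merged where start and end were equal, keeping the summit of highest fold enrichment. Each summit was given to the closest body of a protein-coding gene in the RefSeq GRCm38.p6 table, and a summit inside more than 1 gene counted for each. Reads at the summit are the whole number k that meets fold = (k + 1)/(background + 1) and the Poisson p, and the match in −log10 p was within 7.1e-05 in pSHF and 8.5e-05 in HT at every peak. Promoter sequences matched 7 of the 8 genes, and *Sox9* was not among them. Distances run from the end of the gene body that holds the start.

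Python 3.11.15, pandas 2.3.3, NumPy 2.4.6 and SciPy 1.17.1 were used, and the overlap, assignment and read recovery were checked on simulated peaks. All 8 genes are named, and peaks were named as the strongest of each list and of its restricted peaks, those near gene ends, and for *Sox9* and *Sox4* the strongest beyond 100 kb. Further peaks beside these were chosen after their values were seen. The members and lists were chosen with earlier results of these data known. Alternatives changed the overlap rule, the threshold, the distance limit and the gene table.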

Additional observations from a re-analysis of the deposited data

How the results depend on the processing

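No paired analysis was possible because each tissue has 1 list and no value per sample. For the same reason no replicate could be left out. Over 12 alternatives, 3 of them added after seeing the data, the counts below changed most. With a reciprocal overlap of 50%, 38 HT peaks were restricted, and 23.4% of pSHF and 28.3% of HT member peaks were shared. At a −log10 q of at least 5, 11 pSHF and 13 HT peaks were restricted and 45.8% of HT peaks were shared. There *Sox6* had a difference, pSHF minus HT, of -4. When sharing was decided on the full lists first, 5 pSHF and 9 HT restricted peaks reached that value, 77.3% of pSHF peaks were shared and *Sox6* stood at -3. Between these settings the difference is partners that fell below the cutoff. At or above each list's own median fold enrichment, which is higher in HT, 16 pSHF and 8 HT peaks were restricted. There *Sox4* had a difference of 1 within 100 kb and 2 within 500 kb. With sharing from the full lists, 8 and 5 were restricted and 69.2% of pSHF peaks were shared. Within 500 kb of all 8 genes, 35 HT peaks were restricted. By the nearest gene end, 19 pSHF peaks were. With non-coding genes able to take a peak, 10 HT peaks were restricted and *Sox4* differed by 1 at both limits. Except where a sentence names it, the cause was not tested. In the remaining 40 comparisons of these totals with an alternative, the value stayed within 1.5 times or within its interval. *Sox5* ranged from 0 to 6, *Sox13* from 2 to 5 and *Sox9* from -2 to 4. Restricted peaks had a median of 8 reads in pSHF and 9 in HT, and an effect of depth was not tested.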

Other observations

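Within 500 kb of *Sox9* and *Sox4*, some peaks lay nearest another gene and were left out above. Toward *Slc39a11*, 4 pSHF and 7 HT peaks stood within 500 kb of *Sox9*, with 2 and 5 restricted. The strongest was shared and 414 kb from *Sox9*, at chr11:113201487-113202042 in pSHF with a fold enrichment of 7.97 and 19 reads, and at chr11:113201549-113201954 in HT with 8.92 and 20 reads. Toward *Cdkal1*, 3 pSHF and 8 HT peaks stood within 500 kb of *Sox4*, with 1 and 5 restricted. The strongest in pSHF, at chr13:29210572-29211061, was shared, with a fold enrichment of 6.53 and 13 reads. The strongest in HT, at chr13:29190601-29190870, was restricted and lay 237 kb from *Sox4*, with a fold enrichment of 11.6, a −log10 q of 23.1 and 28 reads. That is above every *Sox4* peak in the HT list, whose highest fold enrichment was 6.86. Toward *Prl5a1*, 2 peaks of each list stood within 500 kb of *Sox4*, all shared.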
